A study of Oryza sativa with 36 samples.

Results

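The 102 genes described here had at least 300 CPM in mature florets of the rice cultivar IR64 and at most 0.2 CPM in every earlier stage. CPM is a gene's read count scaled to a common library total. Both thresholds apply to the mean of 3 libraries per stage. Of the 37862 gene IDs in the table, 457 reached 300 CPM in mature IR64 florets, and 106 of these, 23.2%, also met the low threshold. Of the 106, 4 gene IDs (Os03g0106500, Os03g0106800, Os10g0548600 and Os10g0323600) were left out by the rule. The members were thus selected on their IR64 levels, so the IR64 rise from stage 5 to mature florets is a description and was not tested.

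RNA sequencing counts came from whole florets of IR64, the untransformed control, and of OsEPF1-oe, an OsEPF1 overexpressor made in IR64. The protocol calls this line OsEPF1-oeS. Each line was sampled at 5 developing stages, numbered 1 to 5 (75 to 85 days from sowing), and once at maturity, near day 95, when panicles had headed but anthesis had not begun. The 36 libraries form 12 groups of 3. RNA from 3 plants was combined for a replicate of stages 1 to 5. The sources used here give neither the pooling at maturity nor the promoter of the transgene, and the transgenic group is 1 line. Library totals were 22372257 to 55476576 counts, and those of the 6 mature libraries were 22372257 to 32420334. Os04g0637300, taken as OsEPF1 from general knowledge of rice genes, lay between 0 and 2.73 CPM in the 18 IR64 libraries and between 1111 and 3539 CPM in the 18 OsEPF1-oe libraries.

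A rice floret holds the lemma and palea, lodicules, stamens and a pistil. In the days before anthesis the anthers fill with ripening pollen, and grass pollen is known to store large amounts of transcripts for germination and tube growth that are made late, after the tapetum has degenerated. A whole floret mixes all these organs, so a lower value can stem from fewer cells of a type or from less RNA per cell, and these cannot be told apart here. The count table gives gene IDs without names, and the RefSeq table at hand matched 1 of the 37862 IDs and 0 of the 102 members. No name, function or sequence is therefore attached to a member. The first digits of a rice gene ID give its chromosome and the last digits follow the order along it.

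The 102 genes took up 8.26% ± 0.984 (SD, n = 3) of all counts in mature IR64 florets and 6.70% ± 1.18 in mature OsEPF1-oe florets. In the 3 IR64 libraries the share was 7.13%, 8.78% and 8.88%, and in the 3 OsEPF1-oe libraries 5.76%, 8.02% and 6.31%. The lines overlapped, because replicate 2 of OsEPF1-oe lay above replicate 1 of IR64. The difference of -1.57 percentage points is given with no test, because the genes were selected for a high mean in these same 3 mature IR64 libraries. In the developing libraries the summed level of the same genes was 0.932 to 4.10 CPM in IR64, as the rule sets, and 1.38 to 4.73 CPM in OsEPF1-oe. The 4 genes left out added a further 0.762% of counts in mature IR64 florets and 0.681% in mature OsEPF1-oe florets.

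**Figure D1:**
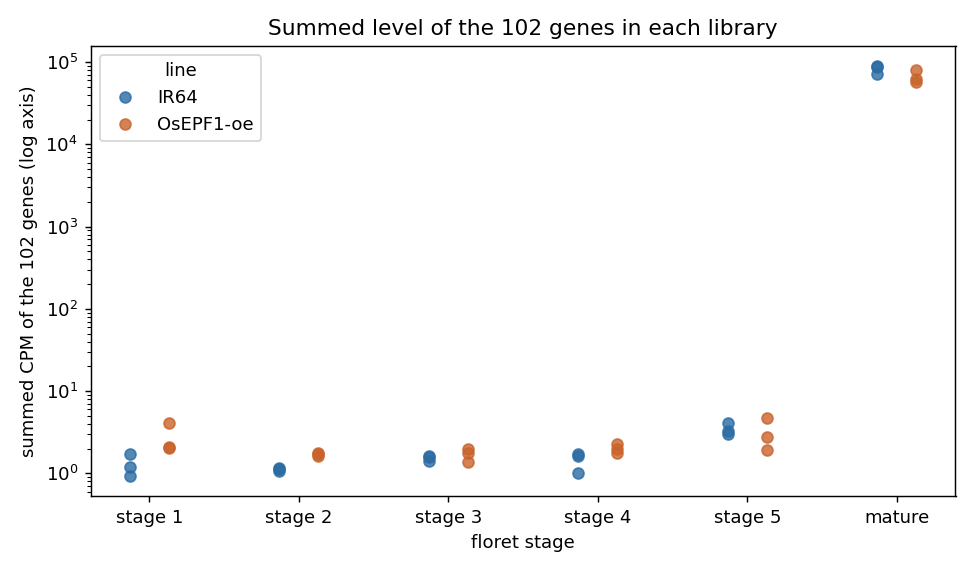
Summed CPM of the 102 genes (log axis) in each of the 36 libraries by floret stage, with 1 point per library and the lines in separate colours. All 30 developing libraries lie between 0.932 and 4.73 CPM, and the 6 mature libraries between 57557 and 88827 CPM.

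The OsEPF1-oe libraries, which the rule did not use, held the same contrast between stage 5 and mature florets. All 102 members passed the count filter, through the mature groups in which they are high, and all 102 were higher in mature than in stage 5 OsEPF1-oe florets (edgeR quasi-likelihood test, adjusted p under the threshold of 0.05). Over all 26726 tested genes 36.1% were called higher in this comparison, 33.2% lower and 69.3% in either direction, and the median log2 change was 0.04. With developing levels near 0, passing the filter went with a high mature level, so the count of 102 is a description and supports nothing when set beside these shares. For 67 of the 102 genes the 3 stage 5 libraries held 0 counts, and against a floor of 3 counts summed over that group these genes were at least 4059-fold to at least 85649-fold higher. Another 19 members had 1 to 3 stage 5 counts and 16 had more. Among the 16 the ratio ran from 1882-fold to 30661-fold, all on plain library totals. The member with the lowest ratio, Os02g0214400, differed by 11.09 ± 0.54 on the log2 scale (SE, n = 3 per group). This size is likewise given as a description.

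Applying the same 2 thresholds to the OsEPF1-oe libraries alone gave 89 genes, of which 80 were on the IR64 list of 106. The shared genes were 75.5% of the IR64 list and 89.9% of the OsEPF1-oe list. Of the 102 members, 76 met both thresholds in OsEPF1-oe, 21 had a mature mean under 300 CPM there, and 6 went above 0.2 CPM at a developing stage. Of the 9 genes found in OsEPF1-oe alone, 4 exceeded 0.2 CPM in developing IR64 florets and 5 lay under 300 CPM in mature IR64 florets.

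Several members with the most reads were not seen at all before maturity. Os08g0218700 on chromosome 8 had 1574, 2712 and 2843 CPM in the mature IR64 libraries and 2132, 3048 and 1793 CPM in those of OsEPF1-oe. It had 0 counts in each of the 30 developing libraries, whose 846310530 counts allow a level of up to 0.00354 CPM. Replicate 1 was the lowest in IR64 and replicate 3 in OsEPF1-oe, and the lines overlapped. Os05g0283200 on chromosome 5 likewise had 0 developing counts, beside 1265, 1913 and 1999 CPM in mature IR64 florets and 1240, 1892 and 1317 CPM in mature OsEPF1-oe florets. In all, 27 members had 0 counts in the 30 developing libraries, 34 had none in the 15 of IR64 and 41 none in the 15 of OsEPF1-oe. The label of genes found in mature florets only therefore held for 27 of the 102, and the other 75 had at least 1 developing count.

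The member with the most mature reads was Os05g0543000 on chromosome 5. It stood at 4106, 4443 and 4642 CPM in the 3 mature IR64 libraries and at 2648, 3749 and 3694 CPM in those of OsEPF1-oe. All 3 OsEPF1-oe libraries lay below the IR64 libraries, but the gene was not called between the lines (log2 change -0.49, edgeR adjusted p = 0.27). Over its 15 developing libraries it had 9 counts in IR64 and 1 in OsEPF1-oe. CPM values are not divided by gene length, so the order of members is one of reads and not of transcript levels. Across the 102 genes, mature means ran from 311 to 4397 CPM in IR64 (median 573) and from 159 to 3364 CPM in OsEPF1-oe (median 478).

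The developing libraries held 1664 counts of member genes, and 10 members carried 802 of them, or 48.2%. The largest single contribution, 225 counts, came from Os01g0369500 on chromosome 1. In developing IR64 florets it had 3 counts at stage 1, 4 at stage 5 and 0 at stages 2, 3 and 4. In OsEPF1-oe it stood at 2.69, 0.831 and 0.217 CPM in the 3 libraries of stage 1 and at 1.47, 0.264 and 0.137 CPM in those of stage 5. Its OsEPF1-oe group mean went from 1.25 CPM in stage 1 florets through 0.426, 0.242 and 0.197 CPM to 0.624 CPM in those of stage 5. Of its 30 developing libraries, the highest were replicate 1 of stage 1 and replicate 1 of stage 5, both from OsEPF1-oe. In mature florets it reached 2123, 2121 and 2403 CPM in IR64 and 1225, 1915 and 1696 CPM in OsEPF1-oe, with the second line lower in every library. Os01g0369500 was not called between the lines (log2 change -0.56, edgeR adjusted p = 0.545).

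The other 5 members above 0.2 CPM at a developing OsEPF1-oe stage fell into different patterns. Os04g0638800 was above 0.2 CPM at stage 1 only, with 3, 9 and 18 counts in the 3 libraries, and had 2 counts in the 12 libraries of stages 2 to 5. Os03g0388800 had 0 counts at stages 1 to 3, then 13 at stage 4 and 24 at stage 5. Os01g0341300 went from 1 count at stage 1 to 21 at stage 4 and 20 at stage 5. Each of the latter pair had its highest IR64 developing level at stage 5 as well, 0.199 CPM for Os03g0388800 and 0.159 CPM for Os01g0341300. Os01g0919200 had counts at every developing OsEPF1-oe stage, with means between 0.0895 and 0.224 CPM.

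Single libraries set some of these levels. For Os01g0944700, 22 of 23 developing counts in OsEPF1-oe came from replicate 1 of stage 5. Without that library its ratio of mature to stage 5 was 30303-fold with a 95% exact interval of 5439 to 1196900, against 1955-fold with it. The ratio of Os01g0369500 went from 2612-fold to 8272-fold, that of Os01g0919200 from 7271-fold to 13885-fold and that of Os02g0187400 from 4805-fold to 12954-fold. For several others the ratio fell without this library. That of Os02g0214400 went from 1882-fold to 1522-fold and that of Os06g0583900 from 16637-fold to 11213-fold. Intervals and floors cover counting error only.

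**Figure D2:**
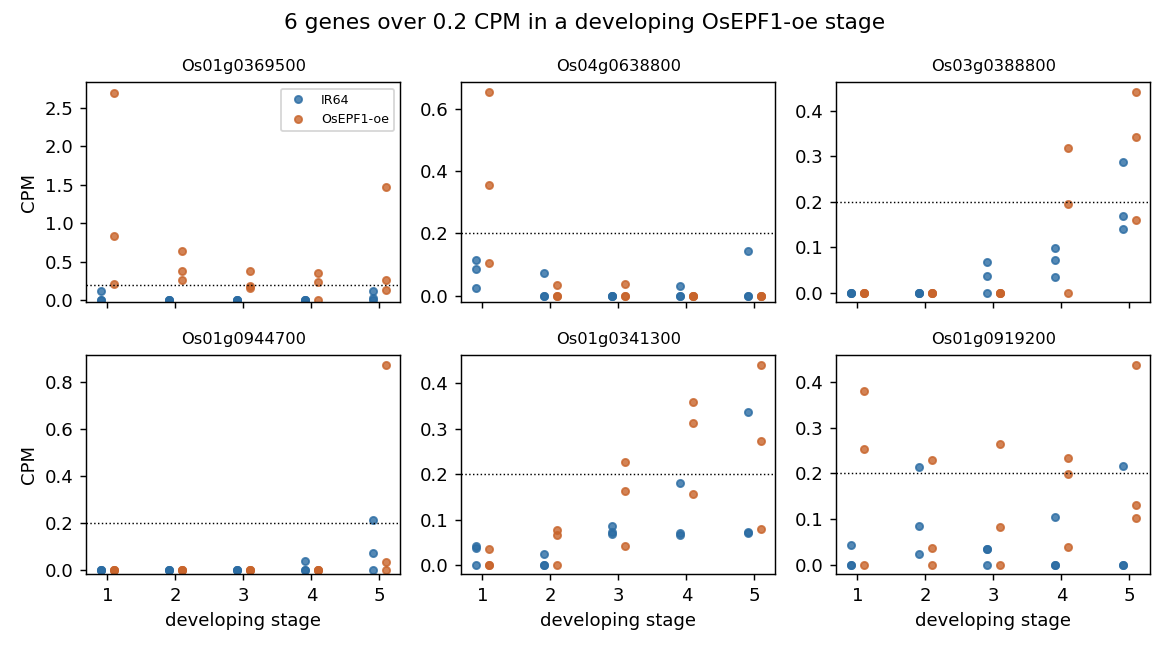
CPM in each developing library for the 6 members whose OsEPF1-oe mean passed 0.2 CPM (dotted line) at a developing stage, with 1 point per library and the lines in separate colours. Os01g0369500 reaches 2.69 CPM in 1 stage 1 library of OsEPF1-oe, and Os01g0944700 exceeds 0.2 CPM in 1 OsEPF1-oe library.

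The comparison of the lines in mature florets uses the IR64 mature libraries that selected the members, which favours lower values in OsEPF1-oe. Its calls and adjusted p-values are therefore given as a description. In the edgeR fit over all genes 2 of the 102 members were called, both lower in OsEPF1-oe, a share of 1.96% beside 2.02% of all 26726 tested genes (1.25% lower and 0.771% higher). The share of members called was thus close to the background. Leaving out 1 mature library gave 3, 1 and 7 calls for replicates 1, 2 and 3 of OsEPF1-oe and 2, 0 and 0 for those of IR64, and the 3 without replicate 1 of OsEPF1-oe were other genes (Os01g0311700, Os01g0594900 and Os02g0520500). Os01g0341300 had 959.7, 998 and 1011 CPM in IR64 and 350.3, 709.9 and 715 CPM in OsEPF1-oe. Its 3 IR64 values lay close together, above all 3 of OsEPF1-oe, of which replicate 1 was the lowest. Its log2 difference between the lines was -0.84 ± 0.22 (edgeR adjusted p = 0.044; SE, n = 3 in each). It was not called without replicate 1 of OsEPF1-oe (adjusted p = 0.146), replicate 2 of IR64 (0.0873) or replicate 3 of IR64 (0.104), nor by DESeq2 (0.105), and it was called in 7 of 15 alternatives, whose adjusted p ran from 0.0117 to 0.668.

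The second gene, Os05g0405400 on chromosome 5, stood at 358, 314 and 366 CPM in IR64 and 91.5, 212 and 253 CPM in OsEPF1-oe. Again the lines did not overlap and replicate 1 of OsEPF1-oe was the lowest library. The log2 change was -0.999 ± 0.27 (edgeR adjusted p = 0.0483). This call was lost without replicate 1 (adjusted p = 0.137) or replicate 2 (0.0734) of OsEPF1-oe, without replicate 1 (0.0753), 2 (0.0773) or 3 (0.138) of IR64, and with DESeq2 (0.333). It was made in 4 of 15 alternatives, with adjusted p from 0.0152 to 0.634. Its IR64 mean of 346 CPM is near the 300 CPM threshold, and members near it were chosen for a high IR64 value.

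By point estimate the members leaned lower in OsEPF1-oe, with a median log2 change of -0.46 against -0.03 over all tested genes. The estimate was below 0 for 94 of the 102, or 92.2%, and for 54.3% of all tested genes. In 19 of the 102, or 18.6%, all 3 OsEPF1-oe libraries lay below all 3 IR64 libraries in CPM, and in 0 above. Over all tested genes 4.07% lay lower without overlap and 11.6% higher. Among the 457 genes with at least 300 CPM in mature IR64 florets, the members included, 8.53% lay lower and 3.50% higher without overlap. The selection on a high IR64 mature value touches the shares of the members and of the 457 genes. It does not touch those over all tested genes, so the shares are set side by side as a description only.

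**Figure D3:**
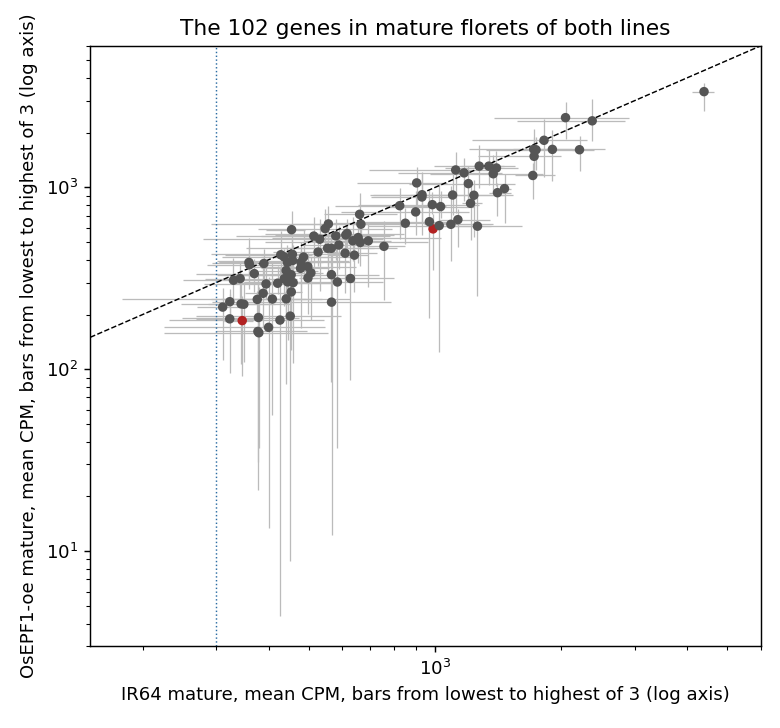
Mean CPM of each of the 102 genes in mature IR64 (horizontal, log axis) and mature OsEPF1-oe florets (vertical, log axis), with bars from the lowest to the highest of 3 libraries. The dashed line marks equal values, the dotted line 300 CPM, and the 2 red points are Os01g0341300 and Os05g0405400, the genes called between the lines.

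Replicates of mature florets differed more for these genes than for most others. The median SD between replicates on the log2 scale was 0.417 for the members and 0.299 over all tested genes in IR64, and 0.467 against 0.223 in OsEPF1-oe. Among 1960 genes with at least 100 CPM in mature florets the median was 0.275 and 0.193. The ratio of the highest to the lowest of the 6 mature libraries ran from 1.54 to 123 over the members, with a median of 2.22. It was at most 2 for 32 members and over 10 for 9.

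The 9 members that varied over 10-fold had the same lowest library. They were singled out after their values were seen, and their lowest value of the 6 was in replicate 1 of OsEPF1-oe in 9 of 9. Os12g0563700 on chromosome 12 had 542, 505 and 231 CPM in IR64 and 4.41, 190 and 366 CPM in OsEPF1-oe. Replicates 1 and 2 of IR64 were the highest and replicate 1 of OsEPF1-oe was far below the rest. Os08g0490700 on chromosome 8 showed the same shape, at 595, 490 and 268 CPM in IR64 and 8.79, 196 and 383 CPM in OsEPF1-oe. In 9 of these 9 genes the lowest IR64 library was replicate 3 and the highest OsEPF1-oe library was also replicate 3. The highest library of the 6 was replicate 1 of IR64 in 8 of them and replicate 2 of IR64 in 1, Os11g0683700. Neither Os12g0563700 (edgeR adjusted p = 0.512) nor Os08g0490700 (0.261) was called between the lines.

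Other members had the opposite order. Os10g0351700 on chromosome 10 stood at 1228, 1924 and 2315 CPM in IR64 and 2388, 1919 and 1142 CPM in OsEPF1-oe. Replicate 1 was the lowest library of IR64 and the highest of OsEPF1-oe, and the group means of 1823 ± 550 and 1817 ± 629 CPM (SD, n = 3) differed by far less than the spread. Over the 102 genes, the lowest IR64 library was replicate 1 for 63 members, replicate 2 for 9 and replicate 3 for 30. The lowest OsEPF1-oe library was replicate 1 for 58 members and replicate 3 for 44, and never replicate 2. Of the 30 genes lowest in replicate 3 of IR64, 27 were lowest in replicate 1 of OsEPF1-oe. The 63 lowest in replicate 1 of IR64 split into 24 lowest in replicate 1 and 39 lowest in replicate 3 of OsEPF1-oe.

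**Figure D4:**
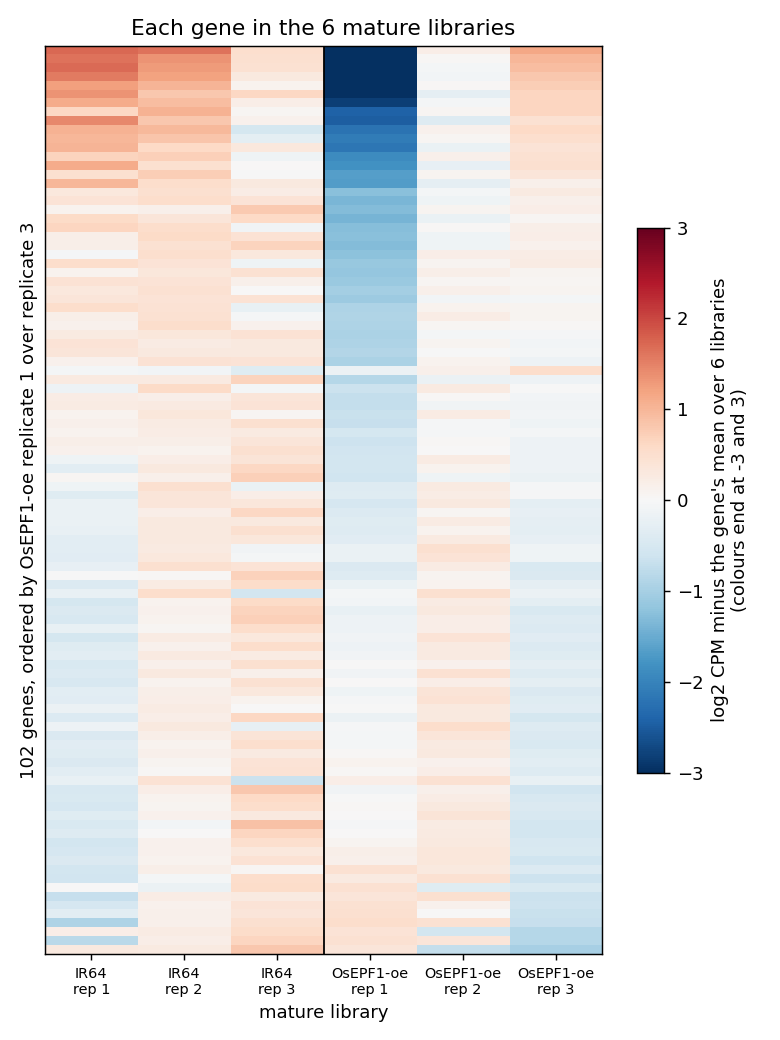
Each row is 1 of the 102 genes and each column 1 of the 6 mature libraries, and colour gives log2 CPM minus the gene's mean over the 6, ending at -3 and 3. Rows are ordered by the log2 ratio of replicate 1 to replicate 3 in OsEPF1-oe. The rows at the top are low in OsEPF1-oe replicate 1 and high in IR64 replicates 1 and 2, and those at the bottom are low in OsEPF1-oe replicate 3. Many of the bottom rows, but not Os01g0594900 or Os02g0520500, are also low in IR64 replicate 1.

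The differences between replicates of one line ran parallel to those of the other across genes. The log2 ratio of replicate 3 to replicate 1 in IR64 and that of replicate 1 to replicate 3 in OsEPF1-oe had a Pearson r of 0.835 and a Spearman rho of 0.797 over the 102 genes. The points share the same 4 libraries, and the genes are not independent, so no p is given. The pairs of replicates were chosen after the values were seen. Over all 9 ways to take 1 pair of replicates from each line, with the lower replicate number over the higher in both lines, r ran from -0.839 to -0.577. Without the 9 most variable genes r was 0.790 over 93 genes. The other 351 genes with at least 300 CPM in mature IR64 florets gave 0.568 for the first pairing and, coded as for the 9 ways, from -0.734 to 0.230 over all of them.

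**Figure D5:**
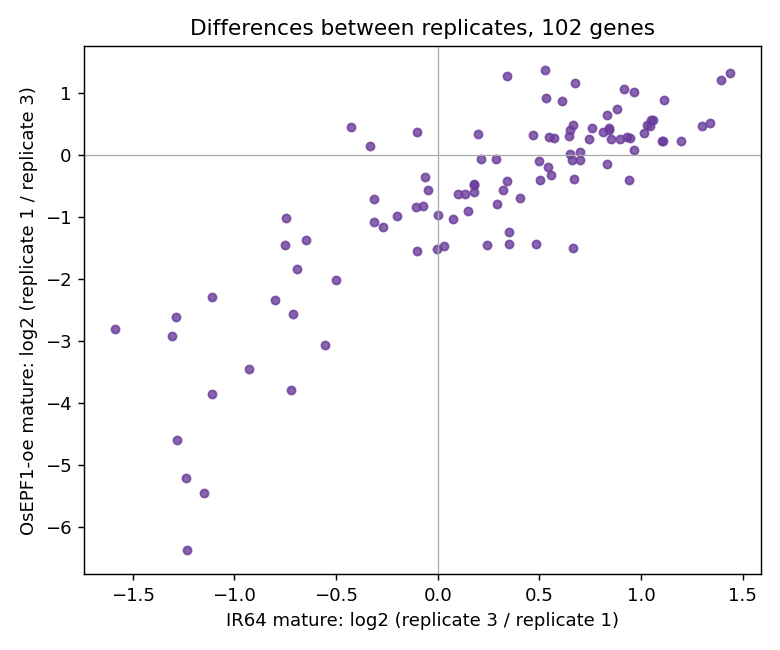
Each point is 1 of the 102 genes, with the log2 ratio of replicate 3 to replicate 1 in mature IR64 florets (horizontal) and of replicate 1 to replicate 3 in mature OsEPF1-oe florets (vertical). Points run from -6.37 to 1.37 on the vertical axis and from -1.59 to 1.44 on the horizontal axis, and 70 of the 102 have the same sign on both.

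Replicate 1 of mature OsEPF1-oe stood apart for many members. In 29 of the 102 genes, or 28.4%, it was at least 2-fold lower than each of the other 5 mature libraries, compared with 37 of the other 351 abundant genes, or 10.5%. It was also the deepest mature library, with 32420334 counts, and had the highest TMM scaling factor of the 6, 0.886 against 0.745 to 0.846 in the others. Of 6 lists of marker genes, some stood apart in it and others did not. The summed level of 9 tapetum and pollen wall genes was 179 CPM in this library against 101 and 86.1 CPM in its replicates, and 140.4 to 160.2 CPM in IR64. For 3 MADS genes of the pollen type (MIKC*) the sum was 70.0 CPM against 121 and 100.4 CPM, and 106 to 148 CPM in IR64. For 8 late pollen genes, 4 of them the IDs left out by the rule, it was 5811 CPM against 8210 and 6589 CPM, and 6434 to 8529 CPM in IR64. For 5 meiosis genes it was 25.5 CPM against 17.1 and 21.2 CPM, and 16.5 to 20.9 CPM in IR64. The sums of 7 floral organ genes (1942 CPM against 1965 and 1930 CPM) and of 7 photosynthesis genes (3118 CPM against 2660 and 3159 CPM) lay between those of its replicates. The part of depth, scaling or cell make-up in the members' differences was not tested.

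The same lists describe the step from stage 5 to mature florets in OsEPF1-oe, in which the members rose. Over all tested genes 36.1% were called higher and 33.2% lower in this step. Of the late pollen list 6 of 8 genes were tested and 6 were higher. Of these 6, 4 are the IDs left out by the rule, which met its thresholds in IR64. Another, Os10g0404500, stood at 0 CPM in every developing group. Such genes pass the count filter only through the mature groups, so this count is a description and supports nothing. Of the 3 MIKC* genes 2 were higher and 0 lower. Among the 3, Os08g0494100 stood at no more than 0.0894 CPM in every developing group, beside 83.4 CPM in mature IR64 and 61.9 CPM in mature OsEPF1-oe florets. The MIKC* count is therefore a description as well. Of 9 tapetum and pollen wall genes 5 were lower and 0 higher, and of 5 meiosis genes 3 were lower and 0 higher. The median log2 change was -2.09 for the tapetum list and -1.47 for the meiosis list, beside 0.04 over all tested genes. All 7 floral organ identity genes and all 7 photosynthesis genes were higher, with medians of 1.63 and 5.00. In mature florets the summed level of the floral organ genes was 1760 to 2084 CPM in the 6 libraries, and 0 of the 7 were at 0. Between the lines in mature florets, edgeR called 0 genes of these 6 lists, which were written from general knowledge and could not be checked against an annotation. The part of these other cell types in the members' rise was not tested.

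The members lay on all 12 chromosomes. Chromosome 6 had the most per 1000 gene IDs, 3.80 (12 members), followed by chromosome 11 with 3.71 (9 members) and chromosome 1 with 3.60 (19 members). Chromosome 9 had the fewest, 0.948 (2 members), and chromosome 3 held 5 members among 4550 IDs. In ID order 23 of the 102 genes stood directly beside another member, in 10 groups, of which 8 were pairs. Within 20 IDs of another member lay 30 genes in 11 groups.

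The largest run of direct neighbours was 4 genes on chromosome 2, Os02g0127100, Os02g0127300, Os02g0127400 and Os02g0127500. Their summed level was 1429, 1938 and 3117 CPM in the IR64 libraries and 1714, 2140 and 1388 CPM in the OsEPF1-oe libraries. Replicate 3 was the highest library of IR64 and the lowest of OsEPF1-oe. Together the 4 genes had 1 count in the developing IR64 libraries, from Os02g0127300, and 1 in those of OsEPF1-oe, from Os02g0127400. A looser group of 6 genes lay within 12 successive IDs on chromosome 6, from Os06g0662225 to Os06g0663300. It summed to 2863, 4237 and 5110 CPM in IR64 and 3221, 4477 and 2819 CPM in OsEPF1-oe, again with replicate 3 highest in IR64 and lowest in OsEPF1-oe.

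The neighbouring pair Os02g0150200 and Os02g0150250 on chromosome 2 behaved otherwise, at a summed 2809, 2598 and 2640 CPM in IR64 and 1152, 2204 and 2055 CPM in OsEPF1-oe. All OsEPF1-oe libraries lay below those of IR64, although neither gene was called between the lines. In 8 of the 10 groups of direct neighbours all genes had their lowest IR64 value in 1 shared library, and in 5 of the 10 their lowest OsEPF1-oe value. Members share a lowest library often wherever they lie. Of the 102, 63 were lowest in replicate 1 of IR64, and 58 and 44 in replicates 1 and 3 of OsEPF1-oe. Whether neighbours share it more often than other members was not tested. The sources used here do not say how reads that fit several places or overlapping genes were counted. Values of neighbours that may be near-identical copies or overlap are therefore uncertain one by one.

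Near the mature threshold, the 4 members just inside had IR64 means of 311 CPM (Os12g0546800), 323 (Os03g0337000 and Os05g0203000) and 329.9 CPM (Os06g0662225). The 4 genes just outside had 299 (Os10g0416800), 297 (Os08g0125300), 279 (Os05g0432200) and 276 CPM (Os06g0679400). For the low threshold, the members just inside had a highest developing mean of 0.199 CPM (Os03g0388800), 0.181 (Os08g0326700), 0.166 (Os03g0309400) and 0.159 CPM (Os01g0341300). Just outside were Os02g0580000 at 0.231 CPM, Os01g0976200 at 0.248, Os12g0634700 at 0.256 and Os02g0103300 at 0.260 CPM.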

How the data were processed

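The authors deposited raw counts per gene ID for all 36 libraries. The submitters' processing notes name the IRGSP-1.0 build and featureCounts, Subread 2.0.0, HISAT2 2.1.0 and Trimmomatic 0.38. The sources used here do not give their settings, strand included. All per-sample columns were used. CPM are counts over column sums. Tests used edgeR 4.0.16 in R 4.3.3 on all 36 libraries (filterByExpr on 12 groups, TMM, group-means model, robust quasi-likelihood, 24 residual degrees of freedom). Their p-values were adjusted by Benjamini-Hochberg over all 26726 tested genes. Such p-values rest on the spread between samples, pooled over the groups in which a gene has counts. Members at 0 in the developing groups have fewer degrees of freedom than 24. Between the lines, Os01g0201400 with 0 developing counts had -0.746 ± 0.260 (SE) and an unadjusted edgeR p of 0.0235. Os05g0405400, with 54 developing counts in IR64 and 18 in OsEPF1-oe, had -0.999 ± 0.270 and 0.000966. In the edgeR fit on the 6 libraries compared, the adjusted p was 0.668 for Os01g0341300 and 0.634 for Os05g0405400. DESeq2 1.42.0, scalings, filters, a replicate block and leaving out libraries were alternatives. Replicates differed beyond sampling noise in all 36 pairs (at least 6.08 chi-square units per gene). Members and lists were chosen with earlier results of these data known. Genes named were those with the most OsEPF1-oe mature reads, called between lines, above 0.2 CPM in developing OsEPF1-oe, next to another member, or at a threshold. Ratios without 1 stage 5 library and the correlation without 9 genes were added after seeing the data. The few genes named for other reasons were chosen after their values were seen.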

Additional observations from a re-analysis of the deposited data

How the results depend on the processing

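All 102 members stayed higher in mature than in stage 5 OsEPF1-oe florets under every edgeR alternative, and DESeq2 called 100. With developing levels near 0, members enter these fits through a high mature level. Both counts are therefore a description and support nothing. Between the lines the count of 2 became 1 with upper-quartile scaling. DESeq2 also called 1, but another gene, Os01g0159500. The count was 0 with plain library totals, with library totals without the members, without a filter on low counts or in a fit on the 6 libraries compared. It was 0 to 7 when 1 library was left out, the 7 without replicate 3 of OsEPF1-oe and 0 without replicate 2 or 3 of IR64, and 0 members were higher in each of these. The median log2 change of the members stayed between -0.69 and -0.29. With the replicate number as a block 5 members were called, all lower. Same-numbered mature libraries of the lines deviated together for number 2 only (correlations -0.0838, 0.175 and -0.0977). Such values cannot show whether same-numbered samples were grown or handled together, and the labels give only the number. Plain library totals moved the median of all genes from 0.04 to -0.14 in the step to mature florets. Thresholds of 100 and 1000 CPM gave 197 and 27 members, 0.1 and 0.5 CPM gave 80 and 129, TMM-scaled CPM gave 118, and leaving out 1 IR64 mature library gave 98 to 104. The mean share of counts was 7.95% to 8.83% in IR64 and 6.03% to 7.17% in OsEPF1-oe when 1 library was left out. For the 40 members named, 576 of 600 values between the lines kept their side of the threshold, 19 lost and 5 gained a call, and 0 changed sign with a call. The cause was not tested. Depth limits the developing levels, where members have few or 0 counts, and its part in the mature levels was not tested.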
